A study of Zea mays with 11 samples.

Results

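The maize genes described here are those with the identifiers Zm00001d027230 to Zm00001d027529, which open the count table and, by the numbering of the B73 v4 gene models, lie at the start of chromosome 1. Of the 300 identifiers in this range, 254 have a row in the table, out of 44474 rows in all. The range was chosen by the measured difference between *pam1* and A344 anthers: rows that differ are dense in it. Every value that sets *pam1* against A344 below is therefore a description of the chosen rows and carries no test of the range, and no finding rests on how many of them differ.

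The RNA-seq data compare whole anthers of the wild-type inbred A344 with anthers of the *pam1* mutant, both collected at prophase I, with 3 libraries in each group. The labels give the mutant's line as *pam1* and name neither its allele nor the inbred it was crossed into. Loss of PAM1 and differences in sequence between the lines therefore cannot be told apart here. The labels do not say whether replicates came from separate plants, so the spread between libraries may be partly technical. In whole anthers, fewer cells of a type and less RNA per cell cannot be told apart either. The series also holds 5 RNA immunoprecipitation samples from A344, whose peaks were not used here because no positions were at hand for these identifiers.

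PAM1 carries an RNA recognition motif, a fold by which many proteins bind RNA, and *pam1* plants are disturbed in male meiosis. Prophase I is the stage at which homologous chromosomes pair, synapse and recombine. The ends of maize chromosome arms are rich in genes and in crossovers, while the middle parts are rich in repeats. Genes close together on a chromosome are usually inherited together.

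No Zm00001d identifier in the range could be paired with a gene name, so no role is given for any member, and levels are not compared between members because their lengths are not known. For the same reason the row of *pam1* and marker genes of anther cells were not checked. Library totals were 1918457 to 2595247 counts, and the members took 7796 to 8831 CPM (counts scaled by the library total). The tested members had a median of 51 counts per library, against 57 for all tested rows. *pam1* replicate 3 lay nearer to A344 than the other mutant libraries did at many rows, and results that rest on it are given with and without it.

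Of the 254 member rows, 20 had no count in any library, 74 had counts but too few for a test, and 160 were tested, which is 63.0% of the members. Of all rows of the count file, 41.6% were tested, and of the 246 rows of the next 300 identifiers (Zm00001d027530 to Zm00001d027829), 43.1% were. In the untested members the median total over the 6 libraries was 5.5 counts and the highest was 53.

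In edgeR's quasi-likelihood test, adjusted by Benjamini-Hochberg over all tested rows, 42 members had an adjusted p under 0.05 and are here said to be called. Of these, 23 were higher and 19 lower in *pam1*. The background was 14.9% of all tested rows called, 8.18% higher and 6.68% lower. The share of members called was 26.2%, a figure that the choice of the range fixes. In the next 300 identifiers, 14 of 106 tested rows were called, 6 higher and 8 lower. Without *pam1* replicate 3, 44 members were called, 25 higher and 19 lower, where 12.5% of all rows tested in that fit were called. Without *pam1* replicate 2, the number of lower members was 12, and 9.82% of all rows tested in that fit were called, in either direction.

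The median log2 fold change, *pam1* minus A344, was −0.01 over the tested members and −0.01 over all tested rows. The median size of the change, regardless of sign, was 0.33 on the log2 scale for the members and 0.25 for all tested rows. Among called members it was 1.49, against 0.99 among all called rows. In 28 called members the change was at least 2-fold, where 7.35% of all tested rows were called with a change of that size. In 7 it was a log2 fold change of at least 3 (background 1.01%), and in 2 it was −3 or less (background 0.449%). The groups did not overlap in 70 tested members, 37 with *pam1* above and 33 with A344 above, where the background for such rows was 31.2%. All 42 called members were among them, and of all 2748 called rows of the table, 2705 had groups that did not overlap.

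**Figure D1:**
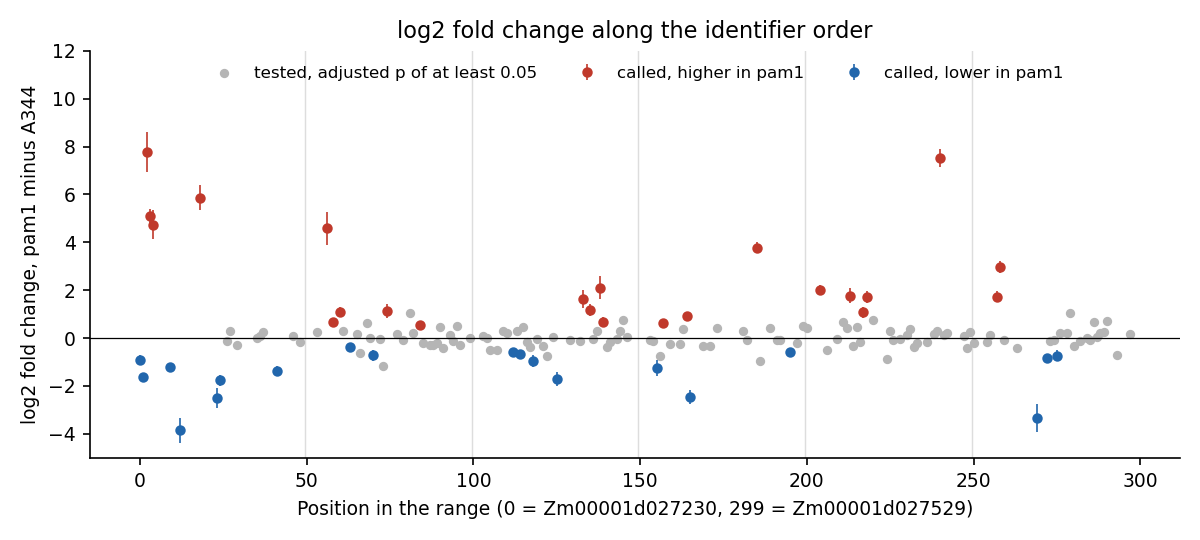
The log2 fold change (*pam1* minus A344) of each of the 160 tested members is plotted against its place in the identifier order, with red points for the 23 called rows that were higher in *pam1*, blue points for the 19 that were lower, grey points for rows not called, bars for the standard error and vertical lines between blocks of 50 identifiers. The first 10 tested rows are all called, in both directions, and the largest change after them is at Zm00001d027470 (log2 fold change 7.52).

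Both directions were present along the order, and the first 50 identifiers held the most calls. In blocks of 50 consecutive identifiers, 11 of 19 tested rows were called in the first block, 4 higher and 7 lower. The second block had 7 of 30 (5 higher, 2 lower), and the third had 8 of 32 (4 and 4). The fourth had 6 of 23 (3 and 3), the fifth had 5 of 30, all 5 higher, and the sixth had 5 of 26 (2 and 3). The median size of the change was 1.21 on the log2 scale in the first block and 0.21 to 0.38 in the others. Over all alternative settings the first block had 10 to 13 called rows, while the ranges of the others were 3 to 7, 4 to 9, 3 to 7, 5 to 7 and 3 to 9. The share of all tested rows that was called ran from 7.35% to 18.1% over these settings. The second block had 4 without A344 replicate 3 and 4 without *pam1* replicate 1, and the third had 4 without *pam1* replicate 2. Stretches without a call also occurred. The longest were 17 consecutive tested rows from Zm00001d027315 to Zm00001d027340, 14 from Zm00001d027506 to Zm00001d027527 and 12 from Zm00001d027450 to Zm00001d027469.

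**Figure D2:**
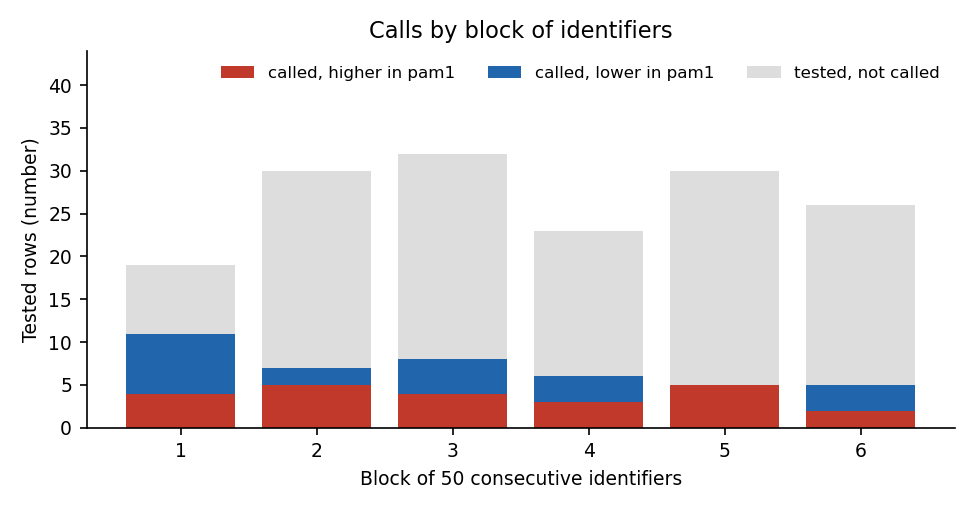
Bars give the number of tested rows in each of the 6 blocks of 50 identifiers, split into called rows that were higher in *pam1* (red), called rows that were lower (blue) and rows not called (grey). The first block has the fewest tested rows, 19, and the most called ones, 11.

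The longest unbroken run of called rows was at the very start: the first 10 tested members, Zm00001d027230 to Zm00001d027254, were all called, 4 higher and 6 lower. The run spans 18 member rows, of which 8 had too few counts for a test. All 10 were also called in each of 13 other fits, and the share of all called rows for which this holds is not given here. The next longest run was 3 rows, Zm00001d027286 to Zm00001d027290.

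The first row, Zm00001d027230, stood at 16.2, 16.6 and 23.5 CPM in *pam1* replicates 1 to 3 and at 35.5, 36.0 and 31.7 CPM in A344 replicates 1 to 3. All mutant libraries were below all wild-type ones, and replicate 3 was the highest of the mutant libraries. The log2 fold change was −0.90 ± 0.19 (SE). Its neighbour Zm00001d027231 stood at 91.4, 85.9 and 121.8 CPM in *pam1* and at 363, 271 and 268 CPM in A344. Here too the groups were apart, *pam1* replicate 3 was the highest mutant library, and A344 replicate 1 was above the other wild-type libraries. The log2 fold change was −1.62 ± 0.16 (SE).

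The next 3 rows went the other way. Zm00001d027232 had 27, 40 and 16 counts in *pam1* (13.3, 15.4 and 7.99 CPM) and none in any A344 library. With the A344 group set to a floor of 3 counts its ratio was 27.6, and with the observed counts the lower 95% limit of the ratio was 21.9. Zm00001d027233 stood at 88.0, 82.8 and 71.9 CPM in *pam1* and at 2.48, 4.17 and 0.441 CPM in A344. It was low but present in the wild type, at 15 counts in all, with a log2 fold change of 5.10 ± 0.30 (SE), or 5.69 without A344 replicate 2. Zm00001d027234 stood at 7.86, 12.7 and 7.99 CPM in *pam1*, and A344 replicates 1 and 2 had 1 count each and replicate 3 none. The ratio of its summed counts was 32.4, with a 95% interval of 8.61 to 273. The row after it, Zm00001d027235, was too low for the test, with 10, 13 and 4 counts in *pam1* and 1 count in A344, and its ratio was 26.9 (95% interval 4.43 to 1102). These intervals cover counting error only, and the floor is a set value and not a limit.

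Zm00001d027239 was lower in *pam1*, at 22.1, 22.7 and 32.0 CPM against 54.9, 59.9 and 59.9 CPM in A344 (log2 fold change −1.21 ± 0.17 SE). Zm00001d027242 had 3, 5 and 59 counts in *pam1* and 356, 278 and 335 in A344. In CPM this is 1.47, 1.93 and 29.5 against 147.0, 144.9 and 147.6. *pam1* replicates 1 and 2 were low, replicate 3 lay between them and the wild type, and the A344 libraries hardly differed. The log2 fold change was −3.84 ± 0.52 (SE) and fell to −6.39 without *pam1* replicate 3. Zm00001d027248 stood at 28.0, 21.2 and 14.5 CPM in *pam1*, with 2 counts in A344 against 141 in *pam1*. Its ratio was 70.3, with a 95% interval of 19.1 to 586.

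The run closed with a pair of rows that were lower in *pam1*. Zm00001d027253 had 1.47, 1.93 and 2.00 CPM in *pam1* and 14.5, 8.34 and 7.93 CPM in A344, and rests on 12 and 69 counts (log2 fold change −2.50 ± 0.41 SE). Zm00001d027254 had 9.34, 10.02 and 15.5 CPM in *pam1* and 46.3, 34.4 and 34.4 CPM in A344 (log2 fold change −1.76 ± 0.22 SE). In both rows every wild-type library was above every mutant one. A further called row of the first block, Zm00001d027271, stood at 13.8, 10.4 and 18.0 CPM in *pam1* and at 35.1, 36.0 and 34.8 CPM in A344 (log2 fold change −1.37 ± 0.21 SE).

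**Figure D3:**
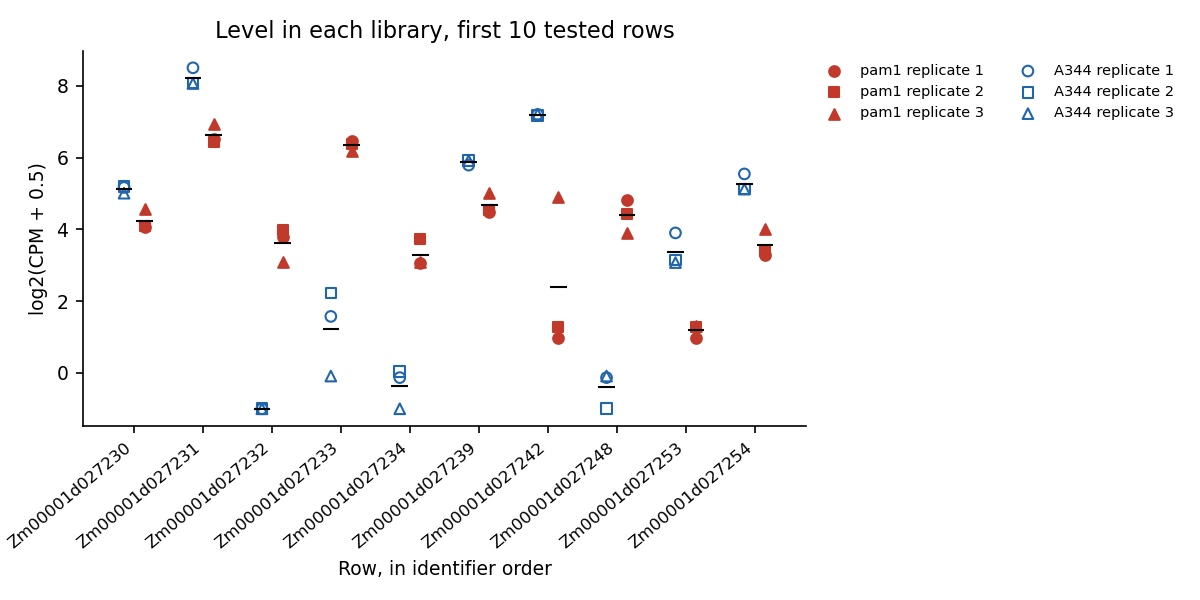
The level of each of the first 10 tested rows is shown as log2(CPM + 0.5) in every library, with filled red symbols for *pam1*, open blue symbols for A344, a symbol shape for each replicate number and black lines for group means on that scale. The groups are apart in every row, and *pam1* replicate 3 (triangles) is the mutant library nearest to A344 in 9 of the 10, the exception being Zm00001d027234.

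Beyond the first block, the 3 largest log2 fold changes among the called rows were in rows that were higher in *pam1*: Zm00001d027470, Zm00001d027286 and Zm00001d027415. Rows that were not tested, such as Zm00001d027498, are not ranked. Zm00001d027415 had the largest number of counts among the called members, at 756, 626 and 417 CPM in *pam1* and 54.5, 29.7 and 43.6 CPM in A344. All mutant libraries were far above the wild type, although *pam1* replicate 3 was the lowest of them. The log2 fold change was 3.78 ± 0.23 (SE), or 599.8 ± 170.9 against 42.6 ± 12.4 CPM (SD, n = 3 each). Zm00001d027470 stood at 181, 164 and 110.3 CPM in *pam1*, and its 5 A344 counts were 0, 2 and 3 over replicates 1 to 3. The wild type was close to 0 at this row, and the ratio of summed counts was 202 with a 95% interval of 86.4 to 624. Its fitted log2 fold change of 7.52 was 6.88 without A344 replicate 1 and 8.17 without A344 replicate 3. Zm00001d027488 was at 57.0, 62.4 and 59.9 CPM in *pam1* and at 4.13, 11.99 and 7.05 CPM in A344. The mutant libraries were alike at this row, *pam1* replicate 3 included, and the log2 fold change was 2.97 ± 0.25 (SE).

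Zm00001d027286 had 15, 30 and 13 counts in *pam1* and 2 in A344, both in replicate 3. Its ratio was 28.9 (95% interval 7.65 to 244). Its fitted log2 fold change was 3.99 without A344 replicate 1 and 7.24 without A344 replicate 3, where no A344 count was left. It begins the run of 3 called rows, which goes on with Zm00001d027288, where *pam1* had 157 ± 11.45 CPM and A344 97.5 ± 10.5 CPM, and Zm00001d027290, where they had 41.6 ± 8.55 and 19.3 ± 1.90 CPM (SD, n = 3 each). These 3 neighbours were all higher in *pam1*, by log2 fold changes of 4.58, 0.66 and 1.10.

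In the other direction, Zm00001d027499 stood at 1.47, 1.54 and 5.49 CPM in *pam1* and 13.2, 49.5 and 21.6 CPM in A344. The wild-type libraries differed widely, with A344 replicate 2 the highest, and the groups did not overlap. The log2 fold change was −3.33 ± 0.57 (SE), −2.66 without A344 replicate 2 and −4.17 without *pam1* replicate 3. Zm00001d027395 stood at 3.93, 3.85 and 6.99 CPM in *pam1* and at 33.0, 18.8 and 27.3 CPM in A344 (log2 fold change −2.47 ± 0.30 SE). It lies beside Zm00001d027394, a called row of the opposite direction, where *pam1* had 245 ± 50.01 CPM and A344 had 128 ± 26.3 CPM (SD, n = 3 each). Zm00001d027355 stood at 7.37, 6.55 and 18.0 CPM in *pam1* and at 30.6, 30.8 and 38.3 CPM in A344. *pam1* replicate 3 was again the mutant library nearest to the wild type, and the log2 fold change was −1.70 ± 0.30 (SE), or −2.29 without that library.

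**Figure D4:**
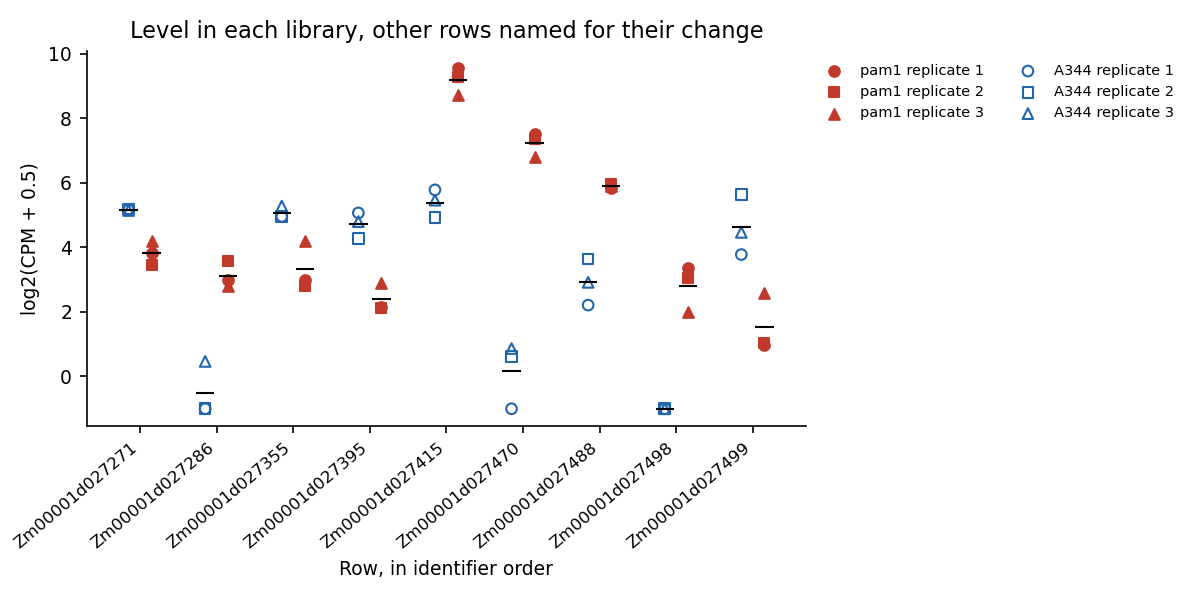
The level of the 9 other rows named for the size of their difference or for being near 0 in A344 is shown as log2(CPM + 0.5) in every library, with filled red symbols for *pam1*, open blue symbols for A344, a shape for each replicate number and black lines for group means on that scale. Zm00001d027286 and Zm00001d027498 are near 0 in A344, and Zm00001d027470 is close to it with 5 counts there. A library with no count lies at −1.

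Of the 23 higher rows, 5 had a log2 fold change under 1 (0.56 to 0.91) and 11 had one of 1 to 3 (1.08 to 2.97). Of the 19 lower rows, 9 were between −0.95 and −0.39 and 8 between −2.50 and −1.21. The median was 1.73 for the called higher members, against 1.10 for all called higher rows, and −1.21 for the called lower members, against −0.86 for all called lower rows. Zm00001d027232, the called member with no count in A344, enters with its fitted value. At its floor its log2 fold change was 4.78, still above 1.73, so the median of the higher members could not change. The 118 tested members that were not called lay between −1.17 and 1.05. The pair of these with the most counts was Zm00001d027295, where *pam1* had 541 ± 33.3 CPM and A344 had 474 ± 39.3 CPM, and Zm00001d027392, where they had 419 ± 37.6 and 487 ± 105 CPM (SD, n = 3 each).

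Summed over rows, the members took 8658 ± 162 CPM of the *pam1* libraries and 8006 ± 192 CPM of the A344 libraries (SD, n = 3 each). The 23 higher rows together took 2217, 2031 and 1830.0 CPM in *pam1* replicates 1 to 3 and 602, 567 and 702 CPM in A344 replicates 1 to 3. The 19 lower rows took 666, 634 and 782 CPM in *pam1* and 1460.2, 1462 and 1417 CPM in A344. *pam1* replicate 3 was the mutant library nearest to A344 in both sums. The members that were not called or not tested took 5938 ± 34.2 CPM of the *pam1* libraries and 5936 ± 172 CPM of the A344 libraries (SD, n = 3 each). Zm00001d027415 alone gave a large part of the first sum: without it the higher rows took 1461, 1405 and 1413 CPM in *pam1* and 548, 537 and 658 CPM in A344, and *pam1* replicate 3 no longer stood nearest.

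Members near 0 in 1 group were all low in A344, which was also the commoner kind over the whole table (150 rows against 25). With at most 3 counts over the A344 libraries and a mean of at least 5 CPM in *pam1*, there were 5 such members: Zm00001d027232, Zm00001d027234, Zm00001d027248, Zm00001d027286 and Zm00001d027498. The background over all rows of the table was 0.337% near 0 in A344 and 0.0562% near 0 in *pam1*, and no member was near 0 in *pam1* by the mirror rule. With so low a background, the lack of such a member is no result about the range. The background also covers more rows of few counts, since 41.6% of all rows and 63.0% of the members were tested. The next 300 identifiers held none of either kind. Of the 5, 3 lay in the first block of identifiers. Where they lay was not tested, and the range was chosen for its differences.

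Zm00001d027498 had 20, 20 and 7 counts in *pam1* and none in A344. Its ratio was 15.6 by the same floor, with a lower 95% limit of 12.2, but *pam1* replicate 3 had too few counts for the row to be tested. Its neighbour Zm00001d027497 also had no count in A344, with 3, 9 and 3 counts in *pam1*, and the row after them is Zm00001d027499, which was lower in *pam1*. At a minimum of 2 CPM in *pam1* the number of members near 0 in A344 was 9, the others being Zm00001d027235, Zm00001d027245, Zm00001d027449 and Zm00001d027497. At a minimum of 10 CPM it was 2, Zm00001d027232 and Zm00001d027248. Without *pam1* replicate 3 there were 5 members near 0 in A344 and 1 near 0 in *pam1*, Zm00001d027524. That row had 3, 0 and 6 counts in *pam1* and 7, 9 and 28 in A344.

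*pam1* replicate 3 was set against the other mutant libraries row by row, as the percent of the way from the A344 mean (0) to the mean of the other 2 mutant libraries (100), in CPM. Over the 28 called members with at least a 2-fold change, its median was 79.9%, with quartiles of 68.6% and 87.6%. The same measure had a median of 109.6% for *pam1* replicate 1 and 111.5% for *pam1* replicate 2. In 20 of the 28 rows *pam1* replicate 3 was the mutant library nearest to A344, in 7 it was replicate 1 and in 1 it was replicate 2. Over all 1359 rows of the table called with such a change, *pam1* replicate 3 had a median of 85.7% and was nearest in 55.0% of rows. The contrast was smaller without the limit on size. Over all 42 called members *pam1* replicate 3 had a median of 84.0%. It was nearest in 23 of the 42, replicate 1 in 14 and replicate 2 in 5. Over all 2748 called rows of the table *pam1* replicate 3 had a median of 88.2% and was nearest in 1374. No test was made of the members against the table, and the measure uses the libraries that chose the range.

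The place of *pam1* replicate 3 was not the same at every row. In the 9 called members with the largest changes (3 or more on the log2 scale in either direction), it lay at 55.7% to 85.02%. It was nearest to A344 in 8 of them, the exception again being Zm00001d027234. At Zm00001d027488 it lay at 100.4%, level with the other mutant libraries, and over the called members of at least 2-fold its highest value was 106%. The A344 libraries, placed in the same way between the *pam1* mean and the other wild-type libraries, had medians of 99.9%, 97.4% and 100.6% for replicates 1 to 3 over the same 28 rows. These medians lay close to 100, although single rows such as Zm00001d027499 spread widely. In the 7 of these rows with a log2 fold change of at least 3, A344 levels were small beside the difference and so tended to land near 100. This did not hold at every higher row: at Zm00001d027487, with a mean of 23.7 CPM in A344 and 80.7 CPM in *pam1*, A344 replicate 1 lay at 75.4%. The medians do not show that the A344 libraries were more alike. Between libraries of a group, chi-square per row of the table was 3.22 to 5.42 in A344 and 1.99 to 2.27 in *pam1*.

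**Figure D5:**
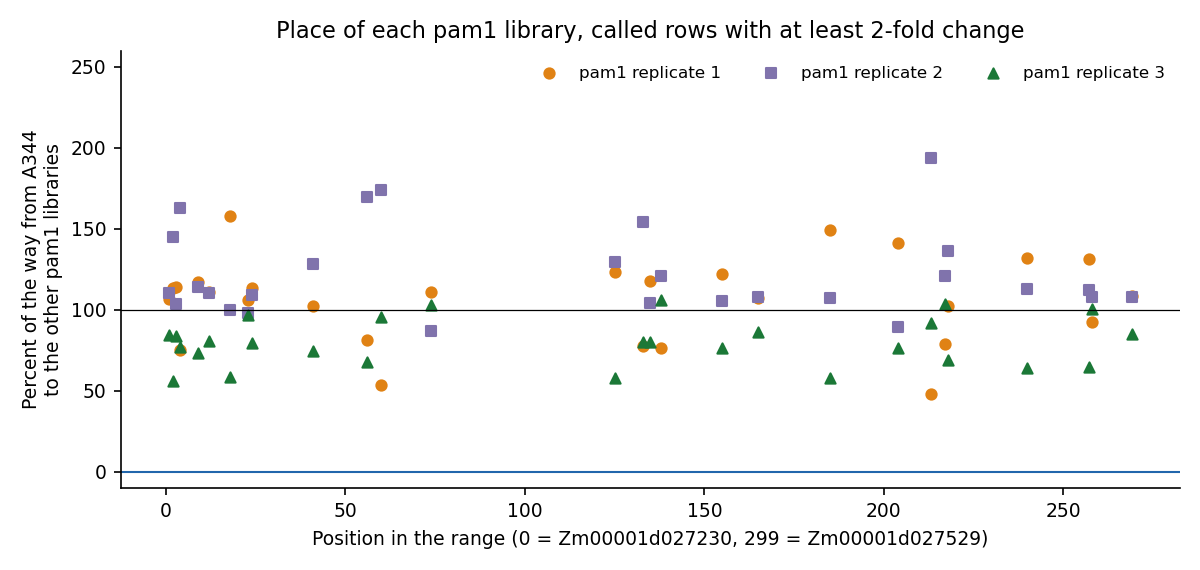
Each point is 1 *pam1* library at 1 of the 28 called members with at least a 2-fold change, placed by the percent of the way from the A344 mean (0, blue line) to the mean of the other *pam1* libraries (100, black line) and by its identifier order. *pam1* replicate 3 (triangles) lies below 100 at most rows, with a median of 79.9%, while the medians of *pam1* replicates 1 and 2 are 109.6% and 111.5%.

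The range ends at an identifier and not at a change in the data. The last 3 tested rows inside it had log2 fold changes of 0.73 (Zm00001d027520), −0.72 (Zm00001d027523) and 0.16 (Zm00001d027527). The first 3 tested rows beyond it had −0.51 (Zm00001d027532), −0.76 (Zm00001d027533) and −0.27 (Zm00001d027535). None of these 6 rows was called. Zm00001d027523 had an edgeR adjusted p of 0.0549, and of 0.0368 with the replicate number as a block.

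In the table, 16 rows with other identifiers stand among the members. Only 1 of them was tested, the microRNA gene MIR528a, which lies between Zm00001d027488 and Zm00001d027489. It had 20, 25 and 14 counts in *pam1* and 7, 3 and 6 in A344, at 8.82 ± 1.59 against 2.37 ± 0.706 CPM (SD, n = 3 each). Both members just before it, Zm00001d027487 (log2 fold change 1.73) and Zm00001d027488, were also higher in *pam1*.

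The authors' deposited table, which rests on the same counts, gave an adjusted p under 0.05 to 38 members, 23 higher and 15 lower in *pam1*. This is 19.5% of the 195 members with an adjusted p in it, and the background was 7.61% of all its rows with one. Both methods called 34 of them, and the other 4 had too few counts for the edgeR test: Zm00001d027235, Zm00001d027245, Zm00001d027449 and Zm00001d027498. Each of those 4 had at most 2 counts in A344. In turn, 8 of the 42 members called by edgeR were not called by the authors, whose adjusted p for them ran from 0.0566 to 0.341. Over the whole table this was so for 1073 of the 2748 called rows.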

How the data were processed

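Counts per gene row were deposited by the authors for 3 *pam1* and 3 A344 libraries, whole numbers and not normalized, made from total RNA with a directional kit per the labels' protocols. STAR and DESeq2 appear in the submitters' processing notes, with no role stated. The counting program, its strand setting and its rule for reads that match more than one place were not given in the sources used here. Neighbours with near-identical sequence, or genes that overlap, may therefore share reads. Per the file headers, the authors' deposited table has a mean signal (scaled by size factors), log2 fold changes and their SE, a Wald score, and p-values. The log2 values in it have the opposite sign to *pam1* minus A344 in 1686 of 1686 rows that it called and edgeR tested.

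The whole table was fitted with edgeR 4.0.16 in R 4.3.3 (TMM, default filterByExpr, quasi-likelihood test, two-sided, Benjamini-Hochberg over 18491 tested rows). The SE is the log2 fold change divided by the square root of F. CPM use total counts. Intervals of ratios between summed counts are exact conditional ones at 95%. Alternatives used DESeq2 1.42.0 and limma 3.58.1 (voom), other scalings, filters and limits, and each library left out. Same-numbered libraries deviated together (correlations of deviations 0.134, 0.118 and 0.128), and no 2 libraries of a group agreed within sampling noise (chi-square per row 1.99 to 5.42). Members and lists were chosen with earlier results of these data known. Rows named are those near 0 in 1 group, the 8 largest and 8 smallest called log2 fold changes, the 2 uncalled rows with most counts, the longest called run and the 3 tested rows on each side of the range's end. Others were named after their values were seen: those near 0 at other limits, Zm00001d027288, Zm00001d027290, Zm00001d027394, Zm00001d027487, Zm00001d027524 and MIR528a. Figures used Python 3.11.15 and matplotlib 3.10.9. No member matched a name in the gene table of Zm-B73-REFERENCE-NAM-5.0. That assembly is not the version these identifiers belong to, so the lack of a match does not show that members have no names.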

Additional observations from a re-analysis of the deposited data

How the results depend on the processing

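Over 15 alternative settings, 28 to 52 members were called, where 7.35% to 18.1% of all tested rows were. Of the 42, 30 (18 higher, 12 lower) were called in all of the 13 other fits at the same limit. The share of all called rows of the table that were called in all fits is not given here. The 30 are therefore no result about the range. The number of lower members was 12 at an adjusted p under 0.01 and 10 where a change of 1 or more on the log2 scale was also required; both limits are stricter by construction. With each library left out in turn there were 33 to 45 called members, 21 to 26 higher and 12 to 20 lower, where 9.24% to 15.1% of all tested rows were called. The lowest values, 33 and 12, came without *pam1* replicate 2, where 9.82% of all tested rows were called. Members near 0 in A344 numbered 2 with at most 1 count over the group, 2 at a minimum of 10 CPM and 9 at a minimum of 2 CPM, and 5 to 6 with 1 library left out. Members near 0 in *pam1* numbered 0 to 1 with 1 library left out, the 1 coming without *pam1* replicate 3, where the limit of 3 counts covers fewer libraries.

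With the replicate number as a block, 47 members were called, 24 higher and 23 lower, where 18.1% of all tested rows were called (14.9% without the block). The fit without the block had called 41 of these. The call of Zm00001d027369 was lost with the block (edgeR adjusted p = 0.0546), and that of Zm00001d027523 was among those gained. Among the 31 tested rows whose values are given above, the block changed the call of Zm00001d027523 only. Over 403 alternative values of those 31 rows, 0 calls were lost, 6 were gained and 0 signs reversed; 5 of the gains were Zm00001d027523 and 1 was Zm00001d027532 (adjusted p = 0.0386 without A344 replicate 2). Depth limits the 74 members that had counts and could not be tested.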
